A study of Capra hircus with 11 samples.

Results

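The miR-2284 and miR-2285 family was described in small RNA libraries of omental fat, the fat of the abdominal fold that hangs from the stomach, from 11 lactating Alpine goats (Capra hircus). Every listed miRNA whose name begins with miR-2284 or miR-2285 was taken as a member, whatever letter or arm followed. This gave 124 of the 637 listed names, or 19.5%, of which 27 were miR-2284 names and 97 were miR-2285 names. All names carry the bovine prefix, which is left out here.

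The 2 groups were 6 goats without feed for their last 48 h and 5 control goats that were fed ad libitum throughout. Peak lactation had been reached in all, 48 ± 2 days after birth when the trial began, and they had eaten the same diet of orchardgrass hay and concentrate (35:65) for 2 weeks beforehand. The labels describe the animals by no age, parity or genotype. Each library came from a different goat, and the errors given are therefore between animals.

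A miRNA is cut from a hairpin precursor and, loaded on an Argonaute protein, pairs with messenger RNAs mainly through its seed, the bases after the first one. The miR-2284 and miR-2285 names form one of the largest miRNA groups annotated in cattle, with many gene copies spread over the genome, and are known mainly from ruminants. The role of most members is not established. In RefSeq's goat genes (assembly ARS1.2), 5 members have a gene of the same name (miR-2284a to miR-2284e), and no 2 of those 5 genes are neighbours. A letter shared between a goat and a bovine name does not by itself make the pair the same gene.

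Values are normalised reads: whole reads of a name divided by 1 factor per library. Libraries held 16974441 to 25389788 miRNA reads, and 1 read was worth 0.607 to 1.33 normalised reads. A name with 0 reads could have up to 3 reads at this depth, which is 1.82 to 3.99 normalised reads depending on the library. Feed-deprived replicate 1 lists 629 names and lacks 3 members, miR-2285bf, miR-2285bm and miR-2285r. Among markers of other cells, the 6 leukocyte miRNAs summed to 53267 to 80020 normalised reads in feed-deprived goats and 38635 to 59501 in controls. All 6 of them had positive log2 fold changes, and 1 passed the threshold. The 3 red-cell miRNAs were also all positive, while the 7 of fat and mesenchyme and the 2 of endothelium were all negative; none of these 12 passed. Other scalings turned some of these signs: 4 of 7 fat and mesenchyme miRNAs and 1 of 2 endothelial ones were negative under library totals, and with upper-quartile factors 5 of 6 leukocyte and 2 of 3 red-cell miRNAs were positive. Of the 4 tested epithelial miRNAs 3 were positive, and of the 4 tested muscle ones 2 were. The 3 red-cell miRNAs summed to 131837 to 348041 in feed-deprived goats and 116344 to 331505 in controls. The 7 epithelial ones summed to 164 to 741 in feed-deprived goats and 149.8 to 610.4 in controls, and the 6 of striated muscle to 676 to 3425 in feed-deprived goats and 848 to 4557 in controls; 1 of these, miR-208b, had no read in at least 1 library. The liver miR-122 lay at 3.91 to 84.6 in feed-deprived goats and 1.08 to 147 in controls, and the neuronal miR-124a and miR-124b summed to at most 3.49 in feed-deprived goats and 5.32 in controls, with 0 in the lowest library of each group. The 7 miRNAs of fat and mesenchyme summed to 7367548 to 13458665 in feed-deprived goats and 10005779 to 15012937 in controls, and the 2 of endothelium to 502282 to 611349 in feed-deprived goats and 532670.2 to 639644 in controls. The part of these cells in the results below was not tested. In bulk tissue, fewer cells of a type and less RNA per cell cannot be told apart.

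The family was rich in names and poor in reads. It took 0.0657% ± 0.0112 of the miRNA reads in feed-deprived goats (SD, n = 6) and 0.0649% ± 0.00931 in controls (SD, n = 5), so the groups differed by less than the spread between goats. The lowest and highest shares were 0.0512% and 0.0802% in feed-deprived goats, against 0.0523% and 0.0762% in controls. In summed normalised reads the family stood at 12745 ± 1739 in feed-deprived goats and 14134 ± 1871 in controls. The 3 missing names make the sum of feed-deprived replicate 1 slightly low.

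miR-2284x alone held 68.7% ± 4.74 of the family's reads in feed-deprived goats and 67.7% ± 7.37 in controls. It was the member with the highest level, rank 67 of all 637 names, with a mean of 9186 normalised reads over the 11 libraries. The next members were miR-2285f at 675, rank 138, and miR-2285k at 471, rank 152. From there the levels fell away steadily: 10 members had a mean of 100 normalised reads or more, 53 had 10 or more, and 37 lay under 1.

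**Figure D1:**
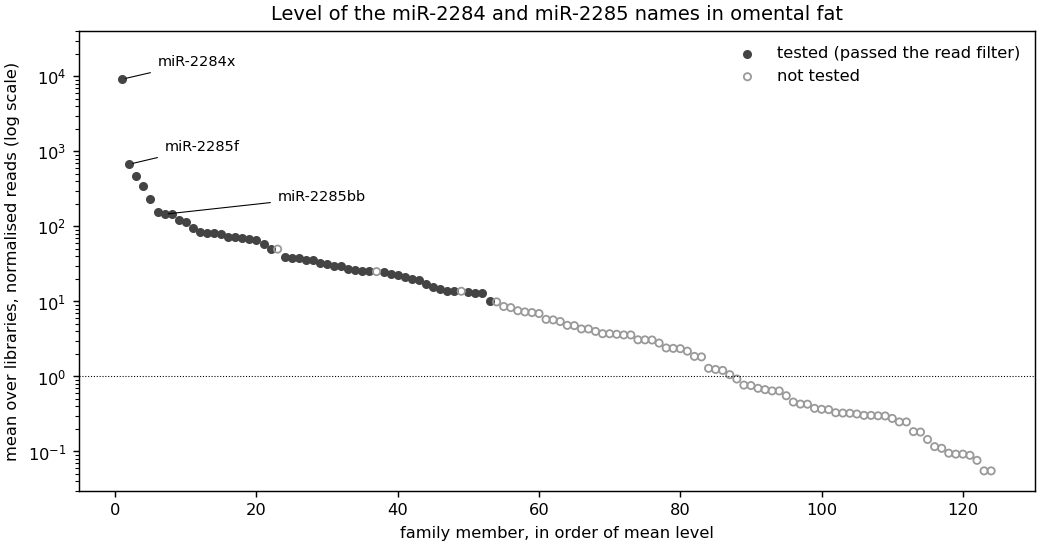
Mean level of each of the 124 names over the libraries that list it, in normalised reads on a log scale, in descending order. Filled points mark the 50 members that passed the read filter and open points the rest; miR-2284x at 9186 lies more than 10 times above miR-2285f at 675, and the dotted line is at 1.

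Many members were at the limit of detection. Of the 124 names, 71 had a read in every library that lists them, 53 had none in at least 1 library, and 39 never exceeded 3 reads in a library. A read in only 1 library was found for 9 names. Feed-deprived goats had 93.3 ± 2.25 members with a read (SD, n = 6; 89 to 95) and controls 92.4 ± 6.07 (SD, n = 5; 84 to 100). The fewest, 84, were in control replicate 2, which was also the shallowest library at 16974441 reads. With at least 10 reads the counts were 52.7 ± 2.42 in feed-deprived goats and 53.0 ± 5.10 in controls.

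Of the 51 names from miR-2286 to miR-2904, the next in number after the family, 12 (23.5%) had a mean of 10 normalised reads or more, and of the 80 numbered from miR-6000 upwards, 18 (22.5%) had. In the family the share was 42.7%, and over the whole list 57.6%. The miR-2286 to miR-2904 names took 0.00531% of all reads and the names from miR-6000 upwards 0.371%, against 0.0653% for the family. Much of the share from miR-6000 upwards lay in miR-10174-3p, with a mean of 63322 normalised reads. miR-6119-5p had 10655, and miR-2284x in the family 9186. These shares and levels are given as a description, with no test.

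Some members had the same count in every library. miR-2284z and miR-2284aa had the same count in all 11 libraries, 806 reads in total, and so did miR-2285aw and miR-2285cm, with 432 reads. Among names with few reads, miR-2285aq equalled miR-2285bi (6 reads), miR-2285am-5p equalled miR-2285dc (3 reads), and miR-2284p equalled miR-2285ao (3 reads). With so few reads, equal counts can also arise by coincidence. At 1 read in total, members also matched names outside the family, such as miR-2285de with miR-149-3p. How the authors assigned reads that fit several names is not given in the sources used here, so the levels of such names are uncertain. The pairs with 806 and 432 reads are not independent measurements.

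Other members kept nearly the same proportion to each other from goat to goat. Among the 39 members with a mean of 20 reads or more and at least 1 read in every library, 17 of the 741 pairs (2.29%) had a ratio of reads whose highest value over the 11 goats was less than 1.5 times its lowest. Over all 324 such miRNAs the figure was 183 of 52326 pairs (0.350%). The 17 pairs, which include the 2 pairs with the same reads, joined 17 names into 6 groups. A name joined a group if it had such a ratio with at least 1 other name in it. Some pairs within a group therefore exceed the limit. The threshold of 1.5 was chosen after the values had been seen.

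The largest of these groups held 5 names, miR-2285bg, miR-2285ad, miR-2285u, miR-2285ap and miR-2285bq. miR-2285bq had 0.889 to 1.04 reads for each read of miR-2285ap, and 0.746 to 0.926 for each read of miR-2285u. A second group held miR-2285k, miR-2285bn and miR-2285cj, in which miR-2285cj had 0.530 to 0.707 reads for each read of miR-2285bn. It had 0.396 to 0.551 for each read of miR-2285k. miR-2285bn had 0.586 to 0.960 for each read of miR-2285k, beyond the limit, and the 2 were linked only through miR-2285cj. The third held miR-2284x with the far rarer miR-2284y and miR-2284h-5p. miR-2284y had 0.00623 to 0.00893 reads for each read of miR-2284x, and miR-2284h-5p had 0.789 to 0.984 for each read of miR-2284y. miR-2285bp and miR-2285j made up the last group, at 0.644 to 0.955.

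**Figure D2:**
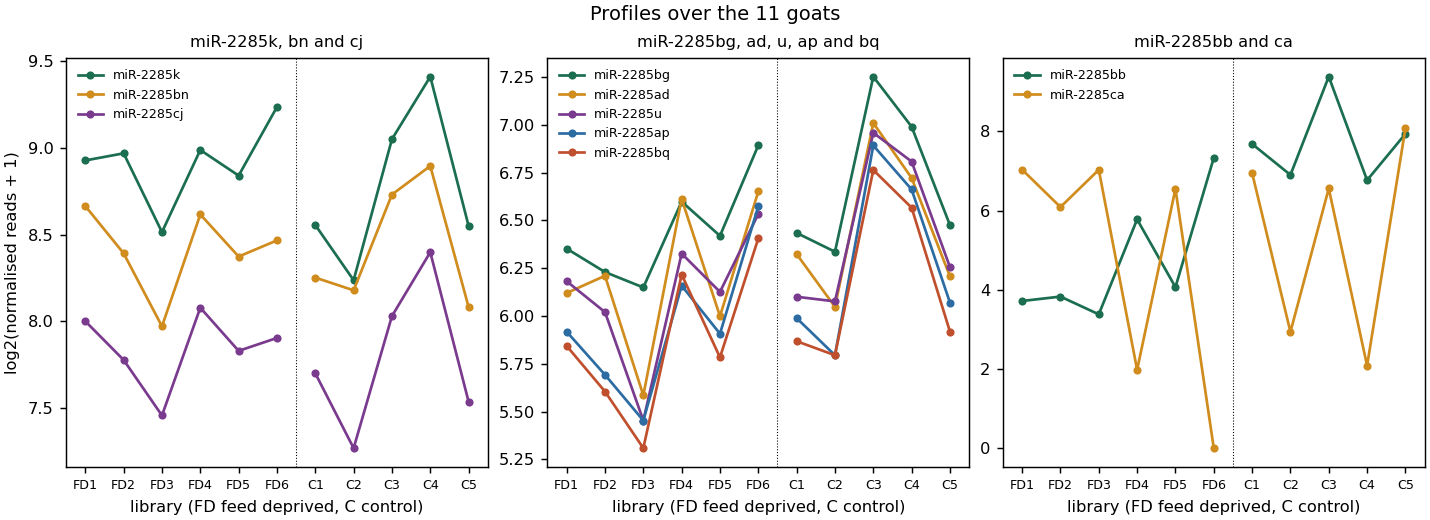
Normalised reads as log2(value + 1) in each of the 6 feed-deprived (FD) and 5 control (C) goats. miR-2285k, bn and cj have similar but not identical profiles, as do the 5 names in the middle panel. The last panel shows the wider swings of miR-2285bb and miR-2285ca, with miR-2285ca at 0 in FD6. Lines join goats only to guide the eye.

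The spread between goats was modest for most members and very wide for a few. It was measured as the SD of log2(value + 1) within the groups. The 50 tested members had a median SD of 0.43, beside 0.43 over all 360 tested miRNAs. For miR-2286 to miR-2904 it was 0.55, and from miR-6000 upwards 0.54. Of the 50 members, 34 had a highest value less than 3 times the lowest over all 11 goats. In edgeR's fit, 4 of the 50 (8.0%) had a biological coefficient of variation above the trend for their abundance, against 103 of 360 (28.6%).

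The narrowest spreads were those of miR-2284y, with an SD of 0.22, and miR-2284h-5p, also 0.22. The linear coefficient of variation between goats was 16.05% for miR-2284y, where counting alone gives 12.1%, and 15.9% for miR-2284h-5p, where it gives 12.9%. For miR-2284x the variation between goats was 21.2% and the counting error only 1.04%. Counting error thus makes up much of the spread for the first 2 names and little of it for miR-2284x.

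miR-2285ca had the widest spread of all 360 tested miRNAs, an SD of 2.86, ahead of miR-105a at 1.85 and miR-767 at 1.79. Its reads in the feed-deprived goats were 214, 66, 124, 3, 94 and 0, in replicate order. In the controls they were 96, 5, 83, 3 and 321. Thus 7 goats had 66 reads or more and 4 had 5 or fewer, with 2 of those 4 in each group and no library between. The 0 in feed-deprived replicate 6 allows up to 3 reads, or 2.62 normalised reads. Its log2 fold change was -0.54, with a 95% interval of -3.66 to 2.58 (limma adjusted p = 0.972).

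The other wide members were miR-2285bb, with an SD of 1.35 and rank 10 of 360, miR-2285az at 1.17 and rank 16, and miR-2285bz at 0.68 and rank 70. All 4 wide members lay above edgeR's trend, which was 0.426 for miR-2285ca against its own 1.23, and 0.415 for miR-2285bb against 0.829. miR-2285az had 0.638 against a trend of 0.438. miR-2285bz, with 0.439 against 0.438, barely exceeded it.

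**Figure D3:**
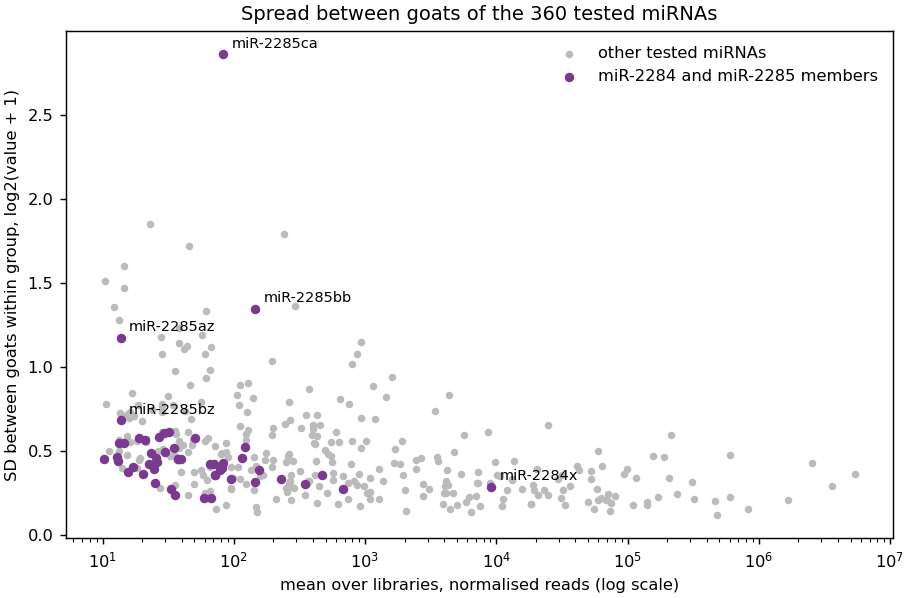
SD between goats within the groups, on the log2(value + 1) scale, against mean level in normalised reads (log scale) for the 360 tested miRNAs; family members are in purple and the others in grey. miR-2285ca stands at the top with 2.86 and miR-2285bb at 1.35, while most members lie near the median of 0.43.

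Feed deprivation against control was tested with limma on log2(value + 1), two-sided, over the 360 miRNAs that passed the read filter, with Benjamini-Hochberg adjusted p under 0.05 as the threshold. Of the 124 members, 50 were tested, 8 named miR-2284 and 42 named miR-2285. The other 71 that every library lists had at most 18 reads in a library and failed the filter, and the 3 missing from 1 library were not tested.

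None of the 50 tested members passed in limma. The background was low too: 3 of the 360 miRNAs (0.833%) were called higher and 0 (0%) lower. At an unadjusted p under 0.05, limma counted 2 of 50 members (4.0%), miR-2285bb and miR-2285dd, and 42 of all 360 (11.7%). On the recovered reads edgeR called 0 members, with 3 at an unadjusted p under 0.05, and DESeq2 called 0 members, with 2. No member had groups that did not overlap, in either direction. Over all tested miRNAs 1.67% had every feed-deprived goat above every control and 0% the opposite.

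Of the 8 members of highest level, all but miR-2285bb, described below, differed on the log2 scale by less than the SD between goats. miR-2284x had 7348, 8276 and 12404 normalised reads as its lowest, median and highest in feed-deprived goats, and 9057, 12377, 7280, 11079 and 8339 in controls. The groups lay over each other across almost the whole range. Its log2 fold change was -0.12, with a 95% interval of -0.50 to 0.25 (limma adjusted p = 0.909).

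miR-2285f had 552, 648 and 823 normalised reads (lowest, median, highest) in feed-deprived goats and 688, 642, 806, 852 and 475 in controls. The highest and the lowest goat of all were both controls, and the log2 fold change was -0.05, with an interval of -0.47 to 0.36. miR-2285k had 365, 493 and 602 in feed-deprived goats and 375, 301, 529, 680.2 and 374 in controls, and again controls were at both ends. The difference for miR-2285k was 0.15 on the log2 scale, with an interval of -0.33 to 0.64. Its companions in proportion had 249.6, 344 and 405 (miR-2285bn) and 174, 232 and 269 (miR-2285cj) in feed-deprived goats. In controls miR-2285bn had 304, 289, 424, 475 and 269.8, and miR-2285cj had 207, 153, 260.2, 336 and 184. For all 3 names control replicate 4 was the highest of the 11 goats.

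miR-2285l had 83.6, 145 and 225 normalised reads in feed-deprived goats and 188, 165, 185, 177 and 131 in controls. Feed-deprived replicate 6 was the highest and 2 other feed-deprived goats lay below every control. The log2 fold change was -0.30, with an interval of -0.82 to 0.22, and became -0.16 without feed-deprived replicate 3. miR-2285ce had 101, 131 and 166 in feed-deprived goats and 142, 170.2, 187, 193 and 101 in controls. The groups overlapped over most of the range, and the log2 fold change was -0.24, with an interval of -0.70 to 0.22, and became -0.39 without control replicate 5.

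miR-2285bb had the smallest p of the family and the widest gap between the groups. Its values in feed-deprived goats were 12.1, 13.2, 9.40, 53.8, 15.7 and 160 normalised reads, in replicate order. In controls they were 204, 118, 665, 108 and 244. So 5 of 6 feed-deprived goats lay below every control, the highest of them at 53.8 and the lowest control at 108, and the sixth lay inside the control range. The means were 44.0 ± 59.1 in feed-deprived goats (SD, n = 6) and 268 ± 229 in controls (SD, n = 5). The log2 fold change was -3.05 ± 0.693 (SE), with a 95% interval of -4.55 to -1.55, and did not pass (limma adjusted p = 0.063). Every library held 9 reads or more, and the variation between goats was 109% where counting alone gives 8.48%.

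The call for miR-2285bb turned on 1 goat and on the scaling. Without feed-deprived replicate 6 it passed as lower, at -3.58 on the log2 scale (limma adjusted p = 0.0037). It also passed with upper-quartile factors (limma adjusted p = 0.031) and with library totals as the only scaling (0.0245). In edgeR the adjusted p was 0.201 and in DESeq2 0.054. Over all alternatives its log2 fold change lay between -3.58 and -2.58.

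The 5 tested miRNAs whose deviations from the group means were most like those of miR-2285bb over the 11 goats were miR-455-5p, miR-2285e, miR-2285ad, miR-2285ap and miR-2285bq. miR-455-5p, of the hairpin whose miRNAs are linked to brown fat, had a Pearson r of 0.789 (permutation p = 0.0043, adjusted p = 0.269) and a Spearman rho of 0.845 (permutation p = 0.0019, adjusted p = 0.207). Its r was 0.895 without the 2 goats farthest from the median, feed-deprived replicate 6 and control replicate 3. For the 4 family members r was 0.724 to 0.754 (permutation p of 0.0066 to 0.011, adjusted p = 0.269) and rho 0.50 to 0.62 (permutation p of 0.047 to 0.121, adjusted p of 0.450 to 0.532). Without those 2 goats their r was 0.322 to 0.557. miR-2285ad, miR-2285ap and miR-2285bq belong to the same proportion group, so their relations are not separate observations. None of these 5 relations passed after adjustment over the 359 examined.

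**Figure D4:**
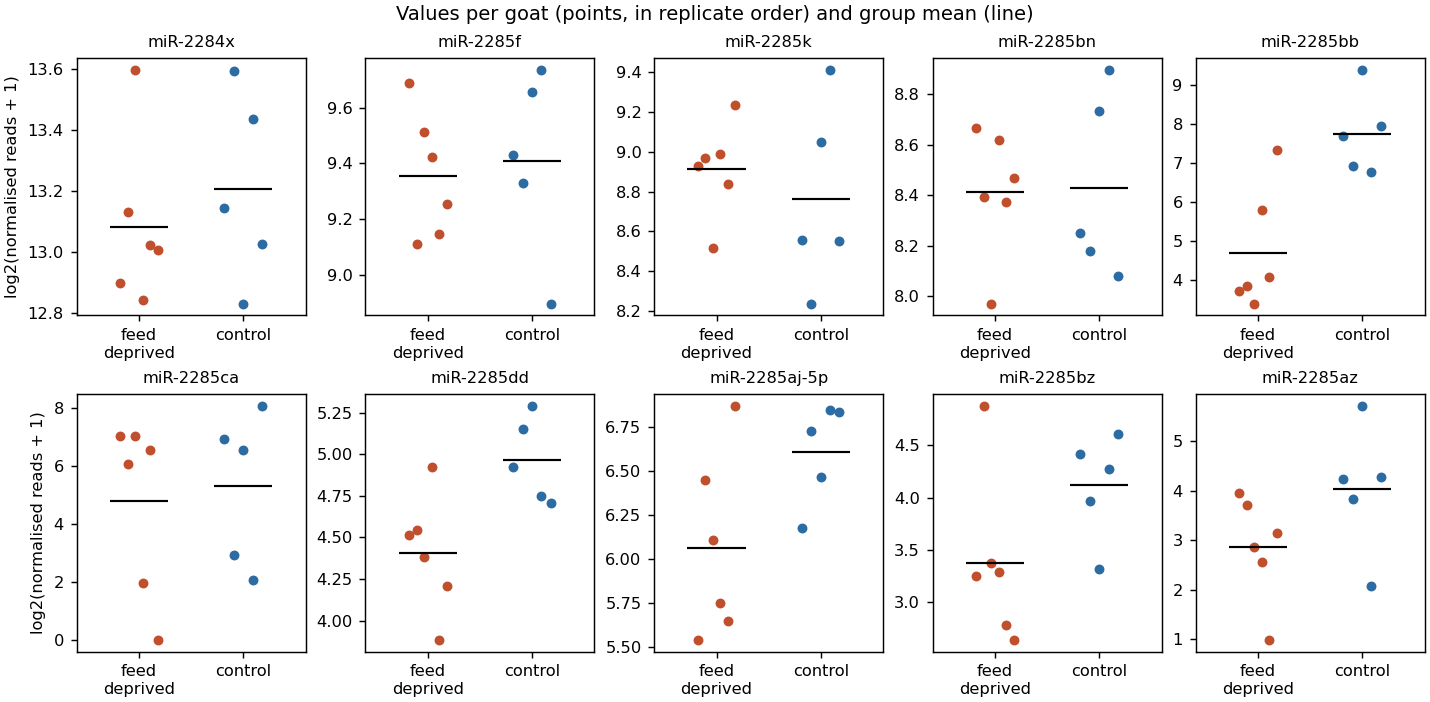
Values of 10 members as log2(normalised reads + 1), 1 point per goat in replicate order and a line at the group mean; each panel has its own axis. In the miR-2285bb panel 5 of the 6 feed-deprived goats lie below all 5 controls, and in the miR-2285ca panel each group holds 2 goats far below the rest.

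miR-2285dd was next in order of p, with 13.8, 20.8 and 29.4 normalised reads (lowest, median, highest) in feed-deprived goats and 29.3, 34.6, 38.1, 25.9 and 25.1 in controls. Again 5 of 6 feed-deprived goats lay below every control, the highest of them at 22.3 and the lowest control at 25.1. On the log2 scale the groups differed by -0.56 ± 0.247 (SE), with an unadjusted 95% interval of -1.09 to -0.024. This difference did not pass (limma adjusted p = 0.423). miR-2285aj-5p, read from the 5′ arm of its hairpin, had 45.5, 60.4 and 116 in feed-deprived goats and 71.5, 105, 87.5, 114 and 113 in controls. Of its 6 feed-deprived goats, 4 lay below every control and 1 above every control. The difference was -0.55 ± 0.264 on the log2 scale (SE), with a limma adjusted p of 0.465.

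miR-2285bz and miR-2285az had larger values of the fold change but few reads. miR-2285bz had 5.24, 8.65 and 28.4 normalised reads in feed-deprived goats and 20.4, 14.6, 8.97, 18.3 and 23.5 in controls. Its log2 fold change of -0.75 (limma adjusted p = 0.497) became -1.05 without feed-deprived replicate 2, the goat with the highest value. miR-2285az had 0.984, 7.06 and 14.6 in feed-deprived goats and 17.9, 13.3, 51.6, 3.23 and 18.4 in controls. Its log2 fold change was -1.16 (limma adjusted p = 0.497), and -0.74 without control replicate 3, the highest.

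miR-2285co, miR-2285e and miR-2284k followed. miR-2285co had 10.8, 16.7 and 21.8 normalised reads in feed-deprived goats and 23.0, 43.9, 32.5, 22.6 and 10.1 in controls (log2 fold change -0.55, adjusted p = 0.634 in limma). That difference, with an interval of -1.29 to 0.20, was -0.33 without control replicate 2 and -0.84 without control replicate 5. miR-2285e had 6.27, 9.62 and 15.7 in feed-deprived goats and 15.3, 10.6, 22.4, 18.3 and 10.9 in controls (log2 fold change -0.50). miR-2284k, the most alike between goats of these 8, had 21.2, 27.97 and 38.6 in feed-deprived goats and 39.6, 35.9, 30.3, 41.0 and 37.7 in controls (log2 fold change -0.33). In each of the 3 the controls included the highest goat, and the groups overlapped.

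Across the 50 tested members, 36 (72.0%) had a negative log2 fold change and 14 a positive one, with a median of -0.14. Over all 360 tested miRNAs 177 (49.2%) were negative, and the median was 0.0040. Of the 12 tested names from miR-2286 to miR-2904, 7 were negative, with a median of -0.05. From miR-6000 upwards 11 of 18 were negative, and the median of -0.15 was close to the family's. The sign of the family's median moved with the scaling. With library totals it was 0.02 with 23 of 50 negative, and with upper-quartile factors -0.31 with 48 of 50 negative. Those scalings moved the median of all 360 miRNAs to 0.16 and -0.17, and relative to it the family's median was -0.14 under both. A change of scaling shifts all names of a library by nearly the same amount. The relative value could therefore hardly move, and its steadiness tests nothing. At a mean of 10 CPM or more it was 0.0068, for 5 members among 190 miRNAs. With a goat left out it lay between -0.180 (without control replicate 5) and -0.072 (without control replicate 4). The 36 are not 36 separate measurements: the 17 names in proportion groups held 12 of them, all 5 of the miR-2285bg group included. The family's median itself was -0.07 without control replicate 4 and -0.08 without feed-deprived replicate 4.

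Leaving aside miR-2285bb, miR-2285az and miR-2285bz, the other 47 tested members had log2 fold changes between -0.56 and 0.31, the highest being miR-2285cs. The half-width of the 95% interval had a median of 0.62 on the log2 scale over the 50 members. It differed between members, and these intervals are not adjusted for the number of miRNAs tested. The 3 members that feed-deprived replicate 1 does not list were compared over the other 10 libraries without a test. miR-2285bf had 50.7 ± 20.8 normalised reads in feed-deprived goats (n = 5) and 49.1 ± 14.4 in controls (n = 5). miR-2285r had 23.8 ± 4.64 in feed-deprived goats and 26.1 ± 9.53 in controls. miR-2285bm had 14.04 ± 9.38 in feed-deprived goats and 13.3 ± 9.80 in controls. All 3 differed by less than the spread between goats.

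**Figure D5:**
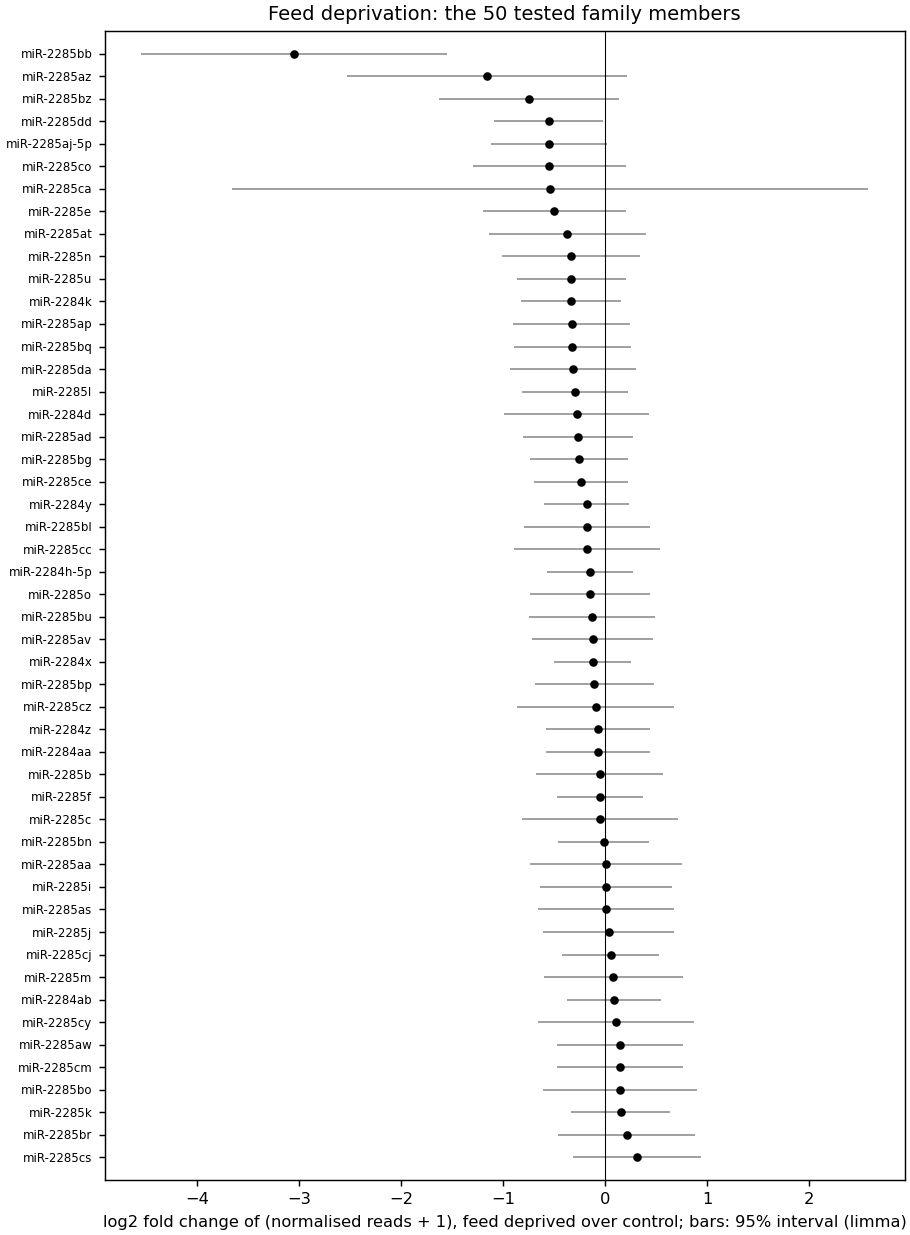
Log2 fold change of each of the 50 tested members, feed deprived over control, with its 95% interval from limma, in order of size. Most points lie within 0.6 of 0 with intervals that cross it; miR-2285bb at -3.05 stands apart, and miR-2285ca has the widest interval.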

How the data were processed

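Small RNA was sequenced from the omental fat of 11 goats with the TruSeq Small RNA kit as single 50-base reads, per the labels' protocols. The authors deposited 1 signal value per miRNA name and library. In every library 100% of the non-zero values were whole multiples of the smallest, within 0.001 read, so each is a read count divided by 1 factor. These factors matched DESeq2's within ratios of 0.998 to 1.003. How the authors trimmed, aligned, named and scaled the reads, and on which build, is not given in the sources used here. No molecular identifiers are described in the labels, so the detection limits cover counting error only. The intervals of the fold changes are from limma and include the variation between goats. No miRNA sequences or genome were used here, so no grouping by seed was made.

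The labels give no replicate numbers, batches or pairing; replicates were numbered in accession order. No 2 libraries were copies (smallest chi-square per degree of freedom 591).

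The 629 names that all libraries list were filtered with edgeR's filterByExpr (minimum count 10), leaving 360. limma (variance trend, robust) was run on log2(value + 1), a scale that understates changes of names with few reads, with Benjamini-Hochberg adjustment over the 360. This test fits the deposited values; edgeR's quasi-likelihood test and DESeq2 on the recovered reads were alternatives. The code was checked on simulated data. Correlations used 100000 permutations. R 4.3.3, limma 3.58.1, edgeR 4.0.16 and DESeq2 1.42.0 were used.

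Members, lists and tests were chosen with earlier results of these data known. Values are given for the 8 members of highest level, the 8 of smallest limma p and any called. For these, each control goat is given, with the lowest, median and highest of the feed-deprived goats. Only for miR-2285bb is each feed-deprived goat given as well. For spread, the 4 widest and 2 narrowest were named. miR-2285ct, miR-2284e and miR-2284f were named after their values were seen.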

Additional observations from a re-analysis of the deposited data

Results flagged for a closer look

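In 5 of 40 sets (a member or family total within a group), 1 goat lay well apart from its group, where chance alone gives about 1 in 20 for sets not picked by their values. Some of these members were named for a wide spread or a small p, miR-2285bb and miR-2285bz among them, so that rate is not a fair comparison here. miR-2285bb had such a goat in each group: feed-deprived replicate 6 with 159.7 normalised reads, where the other 5 had 9.40 to 53.8, and control replicate 3 with 665, against 108 to 244 in the other 4. miR-2284x was high in feed-deprived replicate 3, with 12404 normalised reads against 7348 to 8982 in the other 5. miR-2285bz was high in feed-deprived replicate 2, with 28.4 against 5.24 to 9.40. Feed-deprived replicate 5 had the fewest members with a read of its group, 89 against 93 to 95.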

How the results depend on the processing

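No member was called higher under any alternative run. The number called lower was 1 (miR-2285bb) with upper-quartile factors and with library totals, and 0 to 1 without 1 goat (1 without feed-deprived replicate 6), against 0 otherwise; the same counts held for all miRNAs called lower. Over all miRNAs, 0 were called higher at a mean of 10 CPM or more, 7 with library totals, 9 in DESeq2 and 1 to 4 without 1 goat (1 without feed-deprived replicate 1, 4 or 5 or control replicate 2, 3 or 5, and 2 without control replicate 4). Negative fold changes numbered 72 of 121 with no filter, 3 of 5 at a mean of 10 CPM or more, and 23 of 50 with library totals; with names of the same reads counted once, a count chosen after seeing the data, they were 35 of 48. The median was -0.31 with upper-quartile factors. The difference in family share was -0.0254 percentage points when the 10 most abundant miRNAs were left out of the denominator. On that smaller base the shares were 0.317% ± 0.0448 in feed-deprived goats and 0.343% ± 0.0410 in controls (SD), so the difference was below the spread between goats. For the last change the cause was not tested; the filters test fewer or more names, and the scalings shift all names.

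Of the 50 tested members, 13 changed sign with library totals, 12 with upper-quartile factors and 1 with TMM factors. The changes of sign among the 18 members named by rule were these. With library totals the log2 fold change was 0.040 for miR-2284x, 0.11 for miR-2285f, 0.15 for miR-2285bn and 0.0096 for miR-2284h-5p. With upper-quartile factors it was -0.027 for miR-2285k and -0.12 for miR-2285cj. miR-2285bn was 0.0046 with TMM factors and miR-2285cj -0.0053 in edgeR. Without 1 goat the ranges were -0.18 to 0.029 for miR-2285f, -0.10 to 0.10 for miR-2285bn, -0.075 to 0.21 for miR-2285cj and -1.35 to 0.41 for miR-2285ca. Of 365 comparisons of these 18 with an alternative, 344 kept direction and side of the threshold, 18 changed sign and 3 gained the call, all 3 of them miR-2285bb.

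No paired analysis was possible because each library came from a different goat and the labels give no pairing. Depth limits the 71 untested members with 18 reads or fewer in a library.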

Other observations

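Among members too rare to test, miR-2285ct had 0 reads in feed-deprived replicates 1 to 5 and 3 in replicate 6, against 2, 0, 4, 1 and 3 in controls. Its totals were 3 reads in feed-deprived goats and 10 in controls. A count of 0 allows up to 3 reads in a library, and the difference between the groups was not tested.

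miR-2284e and miR-2284f were low in the same goats of both groups. miR-2284e had 0, 3, 0, 8, 0 and 5 reads in feed-deprived goats and 0, 0, 5, 6 and 4 in controls. miR-2284f had 5, 9, 1, 11, 0 and 15 reads in feed-deprived goats and 0, 0, 10, 16 and 17 in controls. In all 5 libraries without a read of miR-2284e, miR-2284f had 5 or fewer, and in the other 6 it had 9 or more. These names were chosen after their values were seen, and their totals of 31 and 84 reads were too low for the test.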
